A study of Mus musculus with 8 samples.

Results

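The 10 genes described here encode proteins that coat, fuse or help to form the lipid droplet of the fat cell. They were taken by gene symbol from the 54532 genes of the deposited table, and all 10 were found: the perilipins Plin1, Plin2, Plin3, Plin4 and Plin5, the CIDE genes Cidea and Cidec, the seipin gene Bscl2, and the fat storage-inducing genes Fitm1 and Fitm2. Messenger RNA was sequenced from inguinal white adipose tissue (iWAT), a subcutaneous fat pad, of male mice that ate a high-fat diet (HFD). The KLF10AKO group (n = 4) lacks the Krüppel-like transcription factor KLF10 in adipocytes, and the Wildtype group (WT, n = 4) is its comparison. The labels name no Cre line, floxed allele, age or length of diet, and tie no library to an animal; the tests therefore speak only for the scatter among these 8 libraries, which may be technical. Sex, diet and tissue were the same in both groups, and no library is labelled as exercised, although the title of the series speaks of exercise.

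In a white adipocyte nearly all triglyceride lies in a single large droplet. Seipin and the FIT proteins act in the endoplasmic reticulum where droplets are formed, perilipins sit on the droplet surface and govern the access of lipases, and CIDE proteins move lipid from small droplets into larger ones. PLIN1 is the main coat of adipocytes and holds back the activator of adipose triglyceride lipase until it is phosphorylated. CIDEC, also called FSP27, drives the growth of the single droplet of white fat, whereas CIDEA is best known from brown fat.

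Recovered reads ranged from 15537863 to 17499132 per library. Values are FPKM as the authors scaled them (fragments per kilobase of gene, scaled to a size per library that was not its read sum). The recovered reads came to 0.901 to 0.939 of that size in KLF10AKO libraries and 1.05 to 1.09 of it in WT libraries. Relative to scaling by read sums, this lowers the KLF10AKO values and raises the WT values. Klf10 itself stood at 9.39 to 9.75 FPKM in KLF10AKO and at 16.7 to 21.1 in WT, a log2 difference of -0.88 (limma adjusted p = 8.96e-06) that turned to 0.69 after the adipocyte marker scaling described further on; these are whole-gene values, in which a deleted exon is not read on its own. Several libraries stood apart by genes of other tissues. Adipocyte markers outside the droplet genes, 14 in number, all fell, with summed FPKM of 4108 to 5140.2 in KLF10AKO and 10636 to 13194 in WT. All 8 B cell and all 7 T cell markers rose: the B cell sum stood at 1010.0 to 1498 FPKM in KLF10AKO and at 2.55 to 3.68 in WT, and the T cell sum at 225 to 335 FPKM in KLF10AKO and at 1.71 to 3.07 in WT. Skeletal muscle markers summed to 5961, 4509, 10519.7 and 35.1 FPKM in KLF10AKO replicates 1 to 4 and to between 166 and 219 in WT, where Acta1 made up nearly all of it. All 4 trophoblast markers were listed at 0 in KLF10AKO and summed to 13.6 to 40.5 FPKM in WT, although the mice are labelled male. Markers of milk secreting epithelium summed to 0.0456 to 0.595 FPKM in KLF10AKO and to 2.41 to 6.67 in WT. Of 4 endothelium markers 3 were called lower and 0 higher. Of 16012 genes tested 74.3% passed (adjusted p under 0.05), 34.9% as lower and 39.4% as higher in KLF10AKO. Higher genes made up 53.0% of the passing genes in FPKM; the share was 63.4% in TPM, 41.2% after quantile normalization and 98.6% once libraries were scaled to their adipocyte markers.

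In FPKM 9 of the 10 droplet genes fell in KLF10AKO iWAT, by 1.70-fold (Plin3) to 4.06-fold (Cidea), whereas after adipocyte marker scaling only Cidea was still called lower and Plin2, Plin3, Plin5 and Bscl2 had positive log2 differences. Under that scaling 1.21% of all genes were called lower and 86.7% higher, and the median of all genes was 1.44, above each of those 4 values. The tenth gene, Fitm1, passed as higher in FPKM on the strength of 3 of the 4 KLF10AKO libraries. The shares of all genes called lower and higher in FPKM were 34.9% and 39.4%. In each of the 9 the 4 KLF10AKO values lay below the 4 WT values, as they did in 33% of the genes tested (36.2% lay above), and the exact two-sided permutation p was 0.0286, the smallest that 4 against 4 libraries can give. The 9 genes had a median log2 change of -1.68 (-1.60 with Fitm1), against 0.05 over all genes tested. Together the 10 genes took 0.447% ± 0.0397 of the recovered reads in KLF10AKO and 1.27% ± 0.0419 in WT (SD, n = 4 each). In bulk tissue, fewer adipocytes and less RNA per adipocyte cannot be told apart. The fall of the adipocyte markers and the rise of lymphocyte markers went with these changes in all 4 KLF10AKO libraries, and their part in them was not tested. With voom on recovered reads, a weighted fit of read counts, the same 9 genes were lower and 0 higher, where 36.3% of all genes were lower and 37% higher (73.4% in all). With KLF10AKO replicate 4 as the only library of its group, the spread comes from the WT libraries alone and the lone library is assumed to vary like them. In that fit all 10 were called lower, Fitm1 on 0 reads against 2 to 4, where 29.7% of all genes were lower and 32.4% higher (62.1% in all).

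**Figure D1:**
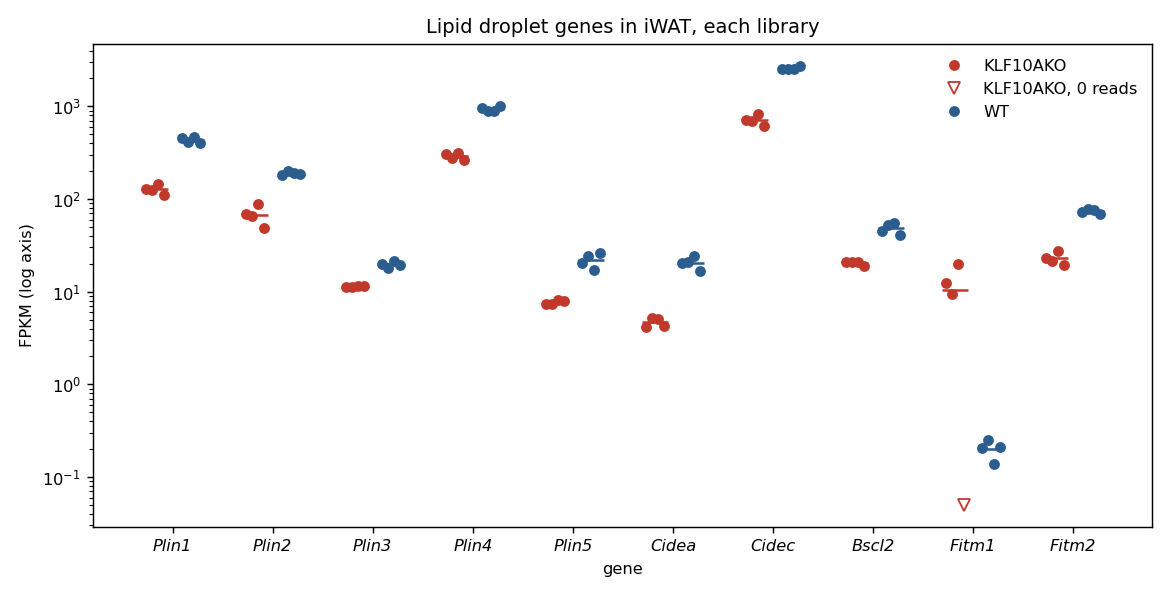
FPKM on a log axis of the 10 lipid droplet genes, with each point a library and each line a group mean (4 KLF10AKO and 4 WT libraries per gene); the open triangle marks 0 reads of Fitm1 in KLF10AKO replicate 4 and has no height on the axis. The KLF10AKO points lie below the WT points for every gene except Fitm1; after adipocyte marker scaling Plin2, Plin3, Plin5 and Bscl2 turn to positive log2 differences.

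Plin1 (ENSMUSG00000030546, mm10 chromosome 7, 79720218 to 79732903, minus strand) stood at 127, 124, 147 and 110.5 FPKM in KLF10AKO replicates 1 to 4 and at 458, 411, 462 and 401 FPKM in WT replicates 1 to 4. The groups lay far apart, and even the highest KLF10AKO library held less than any WT library. The log2 difference was -1.77 (standard error 0.0985, 95% interval -1.99 to -1.55, limma adjusted p = 5.54e-07).

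Plin4 (chromosome 17, 56100591 to 56109803, minus strand), a long perilipin abundant in adipocytes, was the most abundant coat gene in both groups. Its FPKM was 302, 275, 316 and 264 in KLF10AKO replicates 1 to 4 and 955, 892, 889 and 1011 in WT replicates 1 to 4. Again no library of either group came near the other group. The log2 difference was -1.70 (standard error 0.0906, limma adjusted p = 4.41e-07), and its 95% interval of -1.90 to -1.49 overlapped that of Plin1.

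Plin2 (chromosome 4, 86648386 to 86670060, minus strand), the coat found in most cell types and in foamy macrophages, varied most of the perilipins among the KLF10AKO libraries relative to its mean (67.4 ± 16.0 FPKM, SD, n = 4). It stood at 68.6, 65.3, 87.3 and 48.3 FPKM in KLF10AKO replicates 1 to 4 and at 184, 202, 192 and 186 FPKM in WT replicates 1 to 4. Replicate 3 was the highest and replicate 4 the lowest of the KLF10AKO libraries, the order also of their summed adipocyte and muscle markers. The log2 difference was -1.52 (standard error 0.154, limma adjusted p = 2.11e-05); with KLF10AKO replicate 4 as the only library of its group it was -1.97. Summed macrophage markers stood at 653 to 684 FPKM in KLF10AKO and at 412 to 458 in WT. Of 7 markers 1, Lyz2, was called higher (log2 difference 0.86) and 4 lower, against 39.4% and 34.9% of all genes. Every other marker had a negative log2 difference, so the higher sum rests on Lyz2.

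Plin3 (chromosome 17, 56277476 to 56292873, minus strand), a widely made perilipin that moves from the cytosol to small new droplets, fell least. Its FPKM was 11.1, 11.3, 11.4 and 11.5 in KLF10AKO replicates 1 to 4 and 19.9, 18.0, 21.3 and 19.6 in WT replicates 1 to 4. The KLF10AKO values were nearly equal to each other and all lay under the lowest WT value. The log2 difference was -0.77 (standard error 0.0593, 95% interval -0.90 to -0.63, limma adjusted p = 3.72e-06).

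Plin5 (chromosome 17, 56111601 to 56117596, minus strand), a coat of oxidative tissues that ties droplets to mitochondria, ranged over 7.27 to 8.14 FPKM in KLF10AKO and 17.3 to 26.2 FPKM in WT. Its log2 difference was -1.45 (standard error 0.121, limma adjusted p = 6.23e-06). Skeletal and heart muscle also make Plin5. KLF10AKO replicate 4, which had the lowest summed muscle and adipocyte markers, held 7.96 FPKM, within the range of the other KLF10AKO libraries. The part of muscle transcripts in the Plin5 values was not tested. Plin4 and Plin5 lie next to each other on chromosome 17, 1797 bases apart, and Plin3 a further 159879 bases away. The log2 differences of these neighbours were -1.70, -1.45 and -0.77, and the 95% interval of Plin3 overlapped neither of the others.

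Within the perilipin family none of the 5 genes changed its share past the adjusted threshold. As a percent of the summed FPKM of the 5 genes, which no library scaling can move, Plin4 took 57.7% ± 1.86 in KLF10AKO and 58.4% ± 2.24 in WT, and Plin1 took 25.2% ± 0.593 in KLF10AKO and 27.0% ± 2.07 in WT (SD, n = 4 each). Plin3 took 2.16%, 2.34%, 2.0% and 2.59% in KLF10AKO replicates 1 to 4 and 1.22%, 1.16%, 1.35% and 1.19% in WT replicates 1 to 4. Of the 5 shares only that of Plin3 had groups that did not overlap. Its exact two-sided permutation p was 0.0286, or 0.143 when adjusted over the 5 shares, which 4 against 4 libraries cannot bring under 0.05 for a single share. Plin2 took 13.3% ± 1.81 in KLF10AKO and 11.9% ± 0.845 in WT, and Plin5 took 1.54% ± 0.175 in KLF10AKO and 1.38% ± 0.245 in WT (SD, n = 4 each). With KLF10AKO replicate 4 alone the Plin2 difference of 1.35 percentage points turned to -1.01, and the Plin4 difference of -0.77 turned to 1.29 there and to 0.26 without WT replicate 4.

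**Figure D2:**
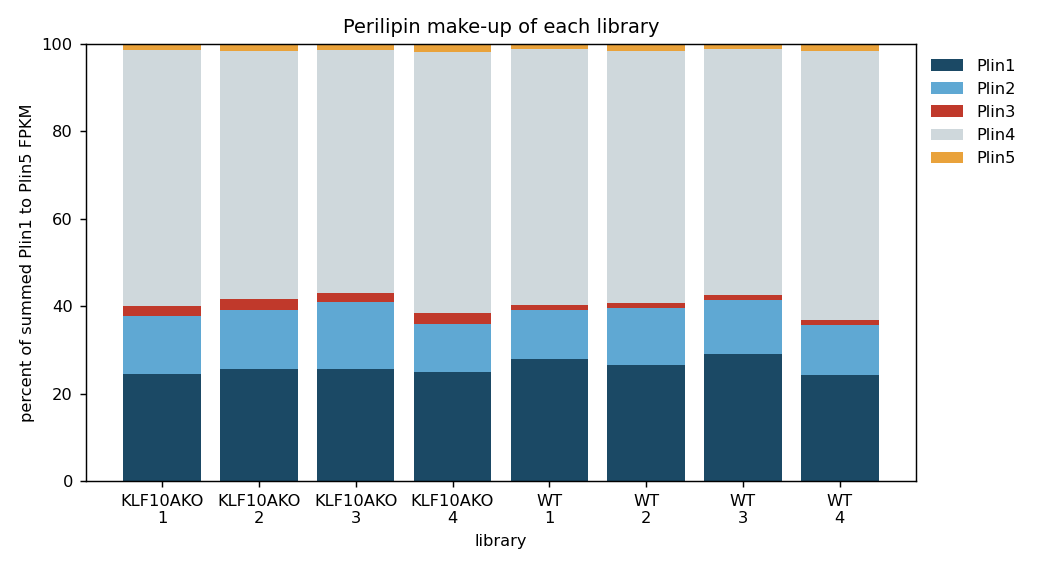
Share of each perilipin gene in the summed FPKM of Plin1 to Plin5 (percent, stacked bars, 1 bar per library, KLF10AKO then WT). Plin4 and Plin1 make up most of every bar, and the Plin3 band is thicker in the KLF10AKO bars (2.0% to 2.59%) than in the WT bars (1.16% to 1.35%).

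Cidec (ENSMUSG00000030278, chromosome 6, 113424634 to 113435760, minus strand) was the highest of the 10 genes, at place 51 of all genes by mean FPKM in KLF10AKO and place 14 in WT. Its FPKM was 714, 702, 817 and 619 in KLF10AKO replicates 1 to 4 and 2517, 2499, 2548 and 2728 in WT replicates 1 to 4. The lowest WT library held more than the highest KLF10AKO library by a wide margin. The log2 difference was -1.86 (standard error 0.114, 95% interval -2.12 to -1.60, limma adjusted p = 9.60e-07).

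Cidea (ENSMUSG00000024526, chromosome 18, 67343564 to 67367794, plus strand) had the largest fall of the 10. It stood at 4.12, 5.21, 5.12 and 4.24 FPKM in KLF10AKO replicates 1 to 4 and at 20.4, 21.0, 24.0 and 16.8 FPKM in WT replicates 1 to 4. These levels rested on 87 to 115 reads per KLF10AKO library and 288 to 420 reads per WT library. The log2 difference was -2.02 (standard error 0.117, limma adjusted p = 6.87e-07), and 0.475% of all genes tested had a lower one. Among the brown and beige markers Ucp1, the uncoupling protein of brown fat, ranged over 0.0693 to 0.405 FPKM in KLF10AKO and 0.205 to 1.07 in WT. Of 3 tested markers 1, Prdm16, was called lower (log2 difference -1.24, limma adjusted p = 5.25e-05), near the 34.9% of all genes. Ppargc1a did not pass (log2 difference -0.22, limma adjusted p = 0.148). Cox8b, which muscle also makes, stood at 19.4 to 111 FPKM in KLF10AKO and at 80.8 to 153 in WT and did not pass (limma adjusted p = 0.103). Cidec exceeded Cidea 153-fold ± 16.6 in KLF10AKO and 128-fold ± 24.0 in WT (SD, n = 4 each), a difference that did not pass (exact two-sided permutation p = 0.171).

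Bscl2 (chromosome 19, 8837467 to 8848683, plus strand), the seipin gene, had 20.7, 20.9, 21.0 and 18.9 FPKM in KLF10AKO replicates 1 to 4 and 45.2, 52.1, 55.1 and 40.3 FPKM in WT replicates 1 to 4. Its groups did not overlap, and the fall of 1.21 on the log2 scale (standard error 0.0979, limma adjusted p = 5.02e-06) was smaller than that of Plin1, Plin4 or Cidec. Exons of Gng3 on the opposite strand and of AC129217.1 on the same strand cover 10.8% of its exon bases in the GENCODE M21 annotation, and the strand setting of the counts is not given in the sources used here. Gng3 itself ranged over 0.267 to 0.292 FPKM in KLF10AKO and 0.314 to 1.34 in WT.

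Fitm1 and Fitm2 differed in the sign of their change. Fitm2 (chromosome 2, 163466379 to 163472629, minus strand), the member made in fat and many other tissues, ranged over 19.2 to 27.5 FPKM in KLF10AKO and 68.1 to 78.4 FPKM in WT. Its log2 difference was -1.68 (standard error 0.105, limma adjusted p = 1.08e-06). Fitm1 (ENSMUSG00000022215, chromosome 14, 55575617 to 55576954, plus strand), the member made mainly in skeletal muscle, showed 12.4, 9.39, 20.0 and 0 FPKM in KLF10AKO replicates 1 to 4 and 0.207, 0.248, 0.137 and 0.210 FPKM in WT replicates 1 to 4. In reads these were 229, 173, 352 and 0 in KLF10AKO and 3, 4, 2 and 3 in WT. So 3 KLF10AKO libraries were high, while the fourth lay with or below WT, where 3 reads would correspond to 0.175 FPKM.

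The fitted log2 difference of Fitm1 was 3.10 (standard error 1.01, limma adjusted p = 0.0205) and moved with the pseudocount, from 3.72 at 0.1 to 2.62 at 1. It passed the filter on low values through the KLF10AKO libraries alone. With voom its adjusted p was 0.370. An exact permutation test of its 8 values, two-sided, gave p = 0.143. Without KLF10AKO replicate 1, 2 or 3 the limma adjusted p was 0.0557, 0.0529 and 0.0544. Without KLF10AKO replicate 4 the log2 difference was 4.30 (limma adjusted p = 9.86e-07), and with that library as the only one of its group -0.48 (limma adjusted p = 0.0136), a gap between 0 reads and 2 to 4 reads. Tnnt3, a fast muscle troponin, followed the same libraries, at 996, 748, 1698 and 3.11 FPKM in KLF10AKO replicates 1 to 4 and at 0.295 to 0.634 FPKM in WT. Of 10 tested muscle markers 9 were called higher, as were 39.4% of all genes tested. The part of muscle transcripts in the Fitm1 result was not tested beyond leaving out libraries. An antisense gene, Gm15932, covers 11.2% of the Fitm1 exon bases and stood at 0.197 to 1.24 FPKM in KLF10AKO and at 0.501 to 1.15 in WT.

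**Figure D3:**
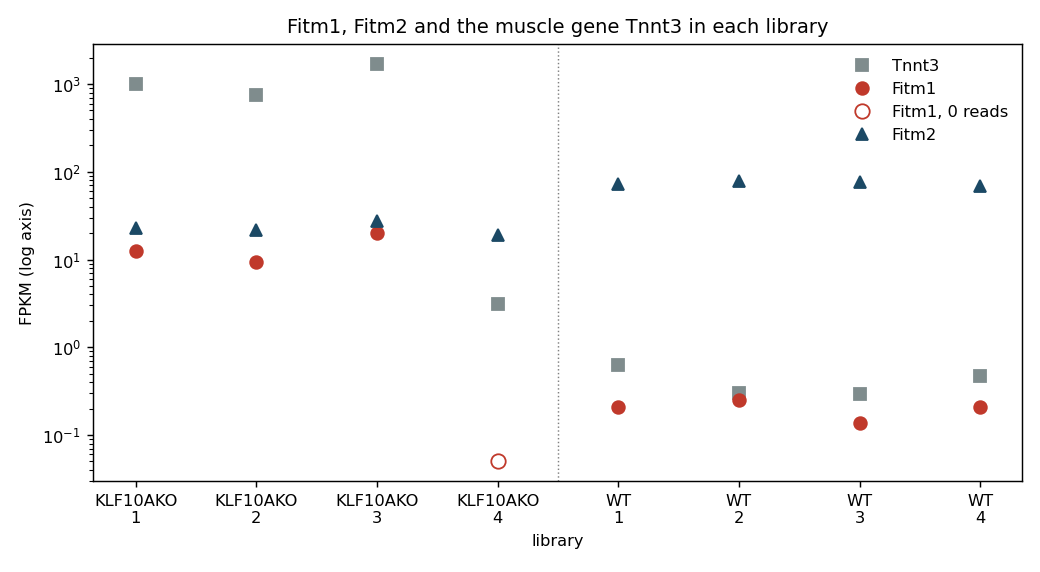
FPKM on a log axis of Fitm1, Fitm2 and the muscle troponin gene Tnnt3 in each library, KLF10AKO left of the dotted line and WT right of it; the open circle marks 0 Fitm1 reads and has no height on the axis. Fitm1 is high in the 3 KLF10AKO libraries where Tnnt3 is 748 to 1698 FPKM, and Fitm2 is lower in all KLF10AKO libraries than in WT.

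The order of levels was largely kept between the groups. From the top, Cidec, Plin4, Plin1, Plin2, Fitm2 and Bscl2 held places 1 to 6 among the 10 genes in both. Fitm2 and Bscl2 had ranges that overlapped in KLF10AKO (19.2 to 27.5 and 18.9 to 21.0 FPKM) but not in WT. Below them Plin5, Cidea and Plin3 could not be ordered in WT, where they averaged 22.0, 20.6 and 19.7 FPKM with overlapping ranges of neighbours. In KLF10AKO the same genes stood apart, with Plin3 at 11.3 ± 0.135, Plin5 at 7.69 ± 0.426 and Cidea at 4.67 ± 0.570 FPKM (SD, n = 4).

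Because adipocyte markers fell as well, the fit was repeated with each library scaled to the mean log2 level of the 14 markers, none of them a droplet gene. This scaling raised the median log2 difference of all genes by 1.39, to 1.44, and called 86.7% of them higher and 1.21% lower (87.9% in all). Of the droplet genes 3 were then called higher and 1 lower. Plin1, Plin4, Cidec and Fitm2 lay at -0.15, -0.07, -0.23 and -0.07, and Plin2 and Plin5 at 0.10 and 0.12, none past the threshold (limma adjusted p from 0.0504 for Cidec to 0.566 for Plin4). Their 95% intervals reached from -0.45 (Cidec) to 0.51 (Plin5).

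Plin3 stood at 0.81 (standard error 0.114, limma adjusted p = 6.08e-05) after this scaling, and Bscl2 at 0.39 (standard error 0.0957, limma adjusted p = 0.00307), each in the direction opposite to its change in FPKM. Cidea stayed lower, at -0.48 (standard error 0.106, limma adjusted p = 0.00147). In marker-scaled units it stood at 7.17, 9.31, 7.71 and 8.63 in KLF10AKO replicates 1 to 4 and at 11.3, 11.8, 12.6 and 10.8 in WT replicates 1 to 4, without overlap. Fitm1 was again called higher, at 3.83. Set against the median of all genes, the 9 other droplet genes ran from -2.07 (Cidea) to -0.82 (Plin3) in FPKM. After marker scaling they ran from -1.92 (Cidea) to -0.63 (Plin3), values that had to be close, since scaling a library moves all its genes nearly alike.

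**Figure D4:**
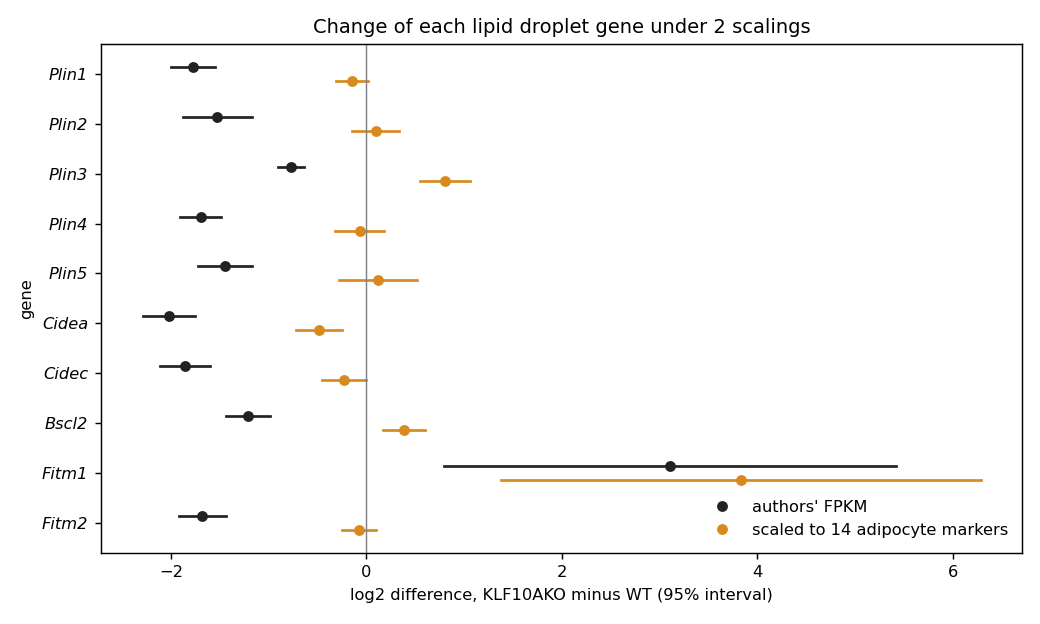
Log2 difference (KLF10AKO minus WT, points) with its 95% interval (lines) of each lipid droplet gene, in the authors' FPKM (black) and after scaling each library to 14 adipocyte markers (orange). After that scaling 6 genes lie between -0.23 and 0.12, Plin3 (0.81) and Bscl2 (0.39) lie above 0, and Cidea (-0.48) lies below it.

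The ratio of each gene to Plin1, was set beside this, since a ratio within a library needs no scaling. The set of 8 ratios, without Fitm1, was chosen after the data were seen. Plin3 amounted to 8.80%, 9.11%, 7.76% and 10.4% of the Plin1 FPKM in KLF10AKO replicates 1 to 4 and to 4.36%, 4.37%, 4.61% and 4.89% in WT replicates 1 to 4. The ratio of Bscl2 ran from 14.3% to 17.1% in KLF10AKO and from 9.87% to 12.7% in WT, and that of Cidea from 3.26% to 4.19% in KLF10AKO and from 4.21% to 5.20% in WT. Only these 3 ratios had groups that did not overlap. Each had an exact two-sided permutation p of 0.0286, or 0.0762 when adjusted over the 8, so none passed. Plin1 itself fell more than most genes, and 1.24% of all genes tested had a lower log2 difference. A rise against Plin1 was thus common, and the share of all genes whose ratios lay apart was not computed. Cidec kept to Plin1 closely in KLF10AKO, at 557% to 565% of it, and ranged over 550% to 681% in WT.

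The promoters of these genes were searched for short motifs in the 250 bases before each RefSeq start (GRCm38.p6), on both strands. Windows were found for 9 of the 10 genes, 13 in all; Cidea had none. CACCC, the core that Krüppel-like factors bind, was in 8 of the 13 windows and in 52.0% of all 32851 promoters. AGGTCA, the half-site of nuclear receptors such as PPARG, the main factor of adipocyte differentiation, was in 3 of 13, those of Plin2, Plin5 and Bscl2, and in 14% of all promoters. A pair of AGGTCA in the same direction with any 1 base between them, which contains the half-site, GTAAACA of forkhead factors and TTGCNNCAA of C/EBP factors were in 0 of 13 windows, and in 0.0335%, 3.17% and 1.74% of all promoters. Shown 5′ to 3′ are the stretches outside annotated exons for the main adipocyte coat gene, the perilipin that fell least, the perilipin with both motifs and the FIT gene that went the other way. Capitals mark CACCC or AGGTCA, or their reverse complements.
Plin1, chr7:79732904-79733026, minus strand: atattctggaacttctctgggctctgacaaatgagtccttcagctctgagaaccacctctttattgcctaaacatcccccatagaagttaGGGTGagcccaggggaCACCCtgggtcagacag
Plin3, chr17:56290512-56290761, minus strand: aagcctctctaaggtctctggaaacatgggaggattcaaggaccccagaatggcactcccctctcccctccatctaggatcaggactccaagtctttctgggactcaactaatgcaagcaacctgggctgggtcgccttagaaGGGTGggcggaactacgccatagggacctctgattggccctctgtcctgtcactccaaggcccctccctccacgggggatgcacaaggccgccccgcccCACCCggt
Plin5, chr17:56117597-56117798, minus strand: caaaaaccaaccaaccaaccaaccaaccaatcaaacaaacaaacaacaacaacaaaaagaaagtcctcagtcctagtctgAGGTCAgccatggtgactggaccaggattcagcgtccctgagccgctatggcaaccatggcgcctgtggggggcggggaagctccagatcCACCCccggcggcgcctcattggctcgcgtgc
Fitm1, chr14:55575424-55575616, plus strand: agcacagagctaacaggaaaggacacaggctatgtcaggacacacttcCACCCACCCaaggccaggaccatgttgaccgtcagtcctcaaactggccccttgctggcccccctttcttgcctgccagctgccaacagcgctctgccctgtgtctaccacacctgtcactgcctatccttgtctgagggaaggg
The genes with CACCC in a window had log2 differences of -1.77 (Plin1), -1.70 (Plin4), -1.45 (Plin5), -1.21 (Bscl2), -0.77 (Plin3) and 3.10 (Fitm1). Whether the motif goes with the change was not tested. A match is only a match of letters, and its absence says only that they are not in the window.

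Among 12857 protein-coding genes, those most like each droplet gene over the 8 libraries were found by the root mean square difference of log2 values centred per gene. For Fitm1 these were Art1, Klhl31 and Tmem38a, genes known from muscle, at 0.171 to 0.209. Nearest to Cidec were Ccdc80, Col4a2 and Deptor at 0.0236 to 0.0531, and to Plin1 Art3, Heph and Ankef1 at 0.0356 to 0.0514. Plin4 had Hspg2, Adipor2, an adiponectin receptor, and G6pdx at 0.0325 to 0.0533. Plin2 lay closest to the lysosomal protease Ctsd at 0.0504, and Plin3 to Nbea at 0.0260. Nbea averaged only 0.279 FPKM in KLF10AKO and 0.811 FPKM in WT, against 11.3 and 19.7 FPKM for Plin3. At levels as low as those of Nbea the pseudocount shrinks log2 differences. The small distance therefore does not show that Nbea and Plin3 fell alike in FPKM. For Cidea the nearest were Hcar2, a receptor that restrains lipolysis, and the triglyceride synthesis genes Agpat2 and Dgat2, at 0.107 to 0.131. Bscl2 had Ldhb at 0.0636, Plin5 F3 at 0.0767, and Fitm2 Fam213a at 0.0446 and the carnitine transferase Cpt2 at 0.0478.

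Of 39 other droplet genes 37 were tested, and 29 fell and 5 rose in FPKM, while after marker scaling 6 were lower and 22 higher, with a median log2 difference of -0.80 in FPKM. Of all genes tested, 34.9% were lower and 39.4% higher in FPKM, and 1.21% lower and 86.7% higher after marker scaling; every count by role below stands against these shares. All 7 lipases and lipase partners fell in FPKM (3 lower and 1 higher after marker scaling): Abhd5, which activates adipose triglyceride lipase once PLIN1 releases it, stood at 5.55 ± 0.683 FPKM in KLF10AKO and 25.1 ± 1.03 in WT (SD, n = 4 each), a log2 difference of -2.09 (limma adjusted p = 7.76e-08), and the lipase gene Pnpla2 at -1.91. All 6 genes of triglyceride synthesis at the droplet fell in FPKM (2 lower and 3 higher after marker scaling), with the acyltransferase gene Dgat2 at -1.91 and the acyl-CoA synthetase gene Acsl1 at -2.07. Of 4 genes of droplet formation and phospholipid supply 2 fell and 2 rose in FPKM, and all 4 were higher after marker scaling. Tmem159, which encodes the seipin partner LDAF1, stood at 12.2 ± 1.29 FPKM in KLF10AKO and 27.7 ± 0.666 in WT (SD, n = 4 each), a log2 difference of -1.16 (limma adjusted p = 1.36e-06), close to the -1.21 of Bscl2. Lpcat1, a phospholipid-remodelling acyltransferase, rose by 1.74 (limma adjusted p = 1.05e-06).

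In droplet traffic and tethering 2 of 10 genes rose and 5 fell in FPKM, and all 10 were higher after marker scaling, as were 86.7% of all genes. Rab18, a small GTPase of the droplet surface, changed by -0.60 and Rab8a, a GTPase known to take part in CIDEC-driven fusion, by 1.08. Of the remaining droplet proteins 9 of 10 tested fell and 1 rose in FPKM (1 lower and 4 higher after marker scaling), with the methyltransferase-like gene Mettl7a1 at -1.49 and the ferroptosis suppressor Aifm2 at -1.47. Cideb, the third CIDE gene, and Hsd17b13, both known from liver, lay under the filter and were not tested. After marker scaling the median of the 37 genes was 0.79, against 1.44 over all genes. Abhd5 and Pnpla2 then lay at -0.53 and -0.29, Dgat2 and Acsl1 at -0.29 and -0.46, Tmem159 and Lpcat1 at 0.42 and 3.24, Rab18 and Rab8a at 1.01 and 2.65, Mettl7a1 at 0.12 and Aifm2 at 0.14.

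**Figure D5:**
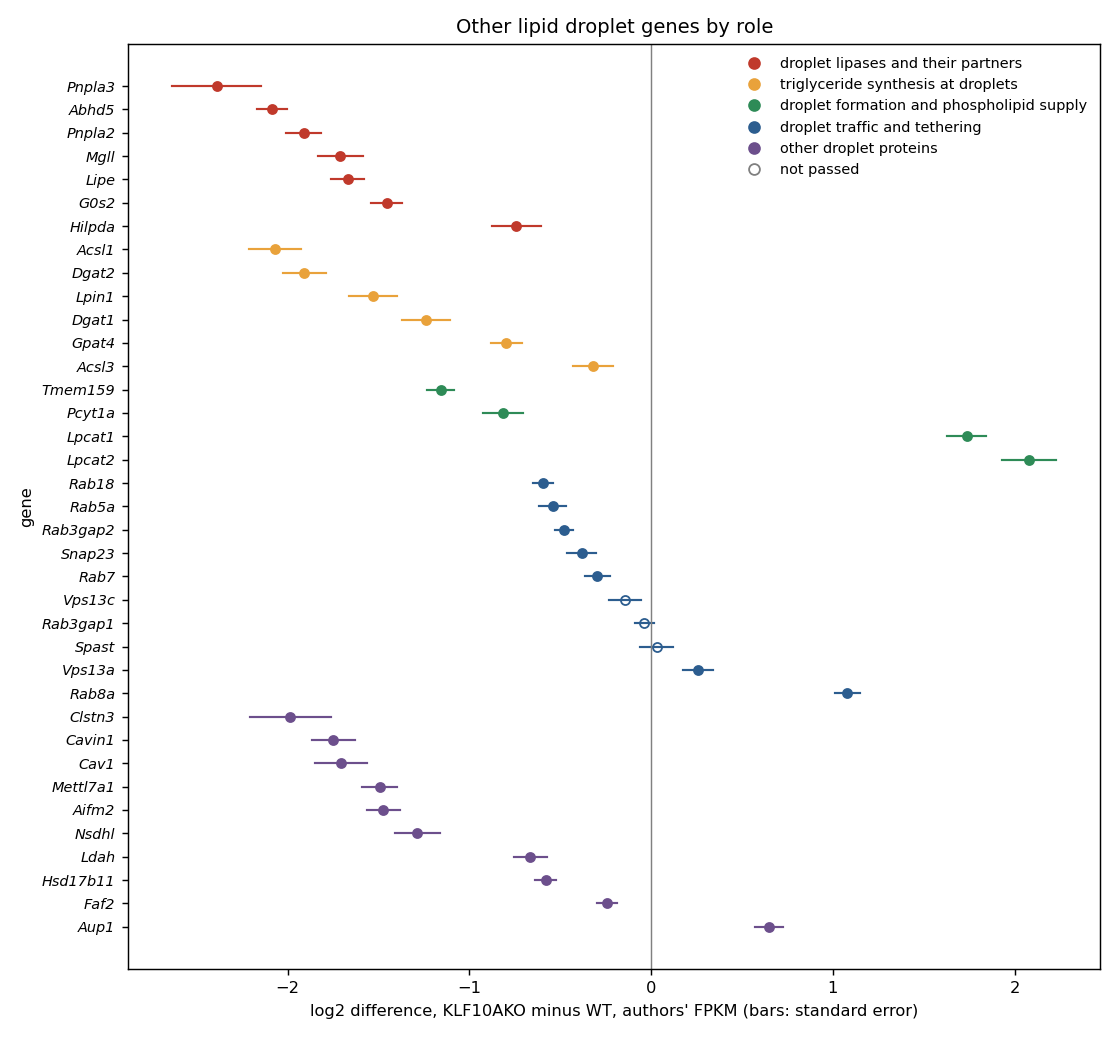
Log2 difference (KLF10AKO minus WT, authors' FPKM) of 37 other lipid droplet genes, coloured by role, with bars of 1 standard error; open points did not pass. All lipase and synthesis genes lie below 0, and the traffic genes spread on both sides of it; after marker scaling 22 of the 37 genes were called higher and 6 lower.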

How the data were processed

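Libraries were made from poly(A)-selected RNA, per the labels' protocols. The submitters' processing notes name mm10 as the build and, as tools, featureCounts 1.5.0-p3, HISAT2 2.0.5 and edgeR 3.22.5. What each tool did, the gene annotation and whether strand was used in counting is not given in the sources used here. Per gene the table holds FPKM, deposited as the authors scaled them, and the length in bases. FPKM times length was a whole multiple of 1 step per library for 100% of values above 0 (within 0.01 of a read), so reads were recovered; their sum was 0.901 to 0.939 of the size that the step implies in KLF10AKO libraries and 1.05 to 1.09 of it in WT libraries. Gene lengths equalled the GENCODE M21 exon union for 9 of the 10 genes (not Cidea).

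Genes with a mean FPKM of at least 0.5 (16012) were fitted as log2(FPKM + 0.5) with limma 3.58.1 in R 4.3.3 (lmFit, eBayes with trend, no covariate), two-sided, adjusted by Benjamini-Hochberg over all genes, threshold 0.05. All fold changes are on that scale, which understates those of low genes. The procedure was tested on simulated data. The simulation held changes in both directions but no shift of tissue make-up or scaling between the groups, so it does not speak to either. Shares and ratios had exact two-sided permutation tests (SciPy 1.17.1), and depth limits the precision of the low genes, Fitm1 and Cidea above all. The droplet genes, gene lists, markers, motifs and tests were chosen with earlier results of these data known. Named were all 10 genes, the 2 of lowest p among the passing genes of each role and Klf10 as the check of the label. So were, per droplet gene, genes from the 3 most alike. Tnnt3, Ucp1, Cox8b, Prdm16, Ppargc1a, Lyz2, Cfd, Slc7a10, Acta1, Cideb, Hsd17b13 and overlapping genes were added after their values were seen. Alternatives were other pseudocounts, filters, scalings, voom, robust eBayes, a replicate block, each library left out and KLF10AKO replicate 4 alone.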

Additional observations from a re-analysis of the deposited data

Results flagged for a closer look

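Bscl2 stood at 18.9 FPKM in KLF10AKO replicate 4, set apart from the other 3 libraries of its group at 20.7 to 21.0 FPKM. It was the only such case among 30 groups of 4 values examined (the 10 genes and the 5 perilipin shares in both genotypes), and chance alone gives about 1 in 20 groups. The same library was the lowest of its group in Plin1, Plin2, Plin4, Cidec, Fitm1 and Fitm2.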

How the results depend on the processing

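The 9 droplet genes other than Fitm1 were called lower under 18 of the 19 alternatives. Under those, 19.6% (no filter) to 44.1% (quantile normalization) of all genes tested were called lower, and most kept the FPKM scaling. The exception was marker scaling, with 1 of the 10 genes lower and 3 higher (Plin3, Bscl2 and Fitm1), against 1.21% and 86.7% of all genes. There Plin1 stood at -0.15, Plin4 at -0.07, Cidec at -0.23 and Fitm2 at -0.07 without passing, while Plin2 turned to 0.10, Plin3 to 0.81, Plin5 to 0.12, Bscl2 to 0.39, Klf10 to 0.69, Tmem159 to 0.42, Rab18 to 1.01, Aifm2 to 0.14 and Mettl7a1 to 0.12; the other droplet genes then counted 22 higher and 6 lower. TPM and quantile normalization moved the median of all genes by 0.20 and -0.20. The number of droplet genes called higher was 0 with voom and with KLF10AKO replicate 4 alone, where Fitm1 turned to -0.48, and 0 to 1 when 1 library was left out. With KLF10AKO replicate 4 alone, the share differences were -1.01 (Plin2), 1.36 (Plin3), 1.29 (Plin4) and 0.42 (Plin5) percentage points, and the log2 ratio to Plin1 was -0.013 for Plin2 and 1.19 for Plin3. Leaving out 1 library moved the share differences over -2.67 to -1.06 (Plin1), 0.66 to 2.13 (Plin2), -1.51 to 0.26 (Plin4) and 0.07 to 0.24 (Plin5); in shares of reads that of Plin3 was 0.78. The cause was not tested.

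Same-numbered libraries deviated together with correlations of 0.00300 to 0.0310, and differently numbered ones with correlations of -0.0176 to 0.0112. Values this small cannot tell whether the numbers pair animals. The replicate block called 11726 genes instead of 11893, with 34.4% of all genes lower and 38.8% higher. It called 9 droplet genes lower and 1 higher as before. The edgeR fit on recovered reads was not run, and tests of shares with 1 library fewer could not pass. Depth limits Fitm1 in WT, at 2 to 4 reads a library.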
